A study of Mus musculus with 2 samples.

Results

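Glycolytic enzyme transcripts were followed through the cell classes counted in libraries of embryonic mouse brain, from Foxq1flox/flox and Foxq1iECKO embryos. Foxq1 encodes a transcription factor. The 10 genes were chosen by symbol, among 31253 genes counted, and cover both hexokinases (Hk1, Hk2), a pair of phosphofructokinases (Pfkl, Pfkp), aldolase A (Aldoa), phosphoglycerate kinase (Pgk1), enolase 1 (Eno1), pyruvate kinase M (Pkm) and both lactate dehydrogenase subunits (Ldha, Ldhb). These symbols matched 11 entries, because Aldoa carried 2 gene identifiers. The entry ENSMUSG00000030695, with 7909 and 7907 UMIs, was used, and the other one had 3 and 7.

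The material was whole brain at stage E12.5, sorted with CD31 microbeads and profiled by single-cell RNA sequencing of 3′ transcript ends, in which every captured molecule is counted once through its molecular barcode (UMI). There was 1 library of Foxq1flox/flox embryos, which carry floxed Foxq1 alleles, and 1 of Foxq1iECKO embryos, in which the label marks Foxq1 as removed from endothelial cells by an inducible deletion. The labels name neither the driver nor the inducer of the deletion, nor how many embryos entered a library, nor whether the Foxq1flox/flox embryos received the same treatment. With 1 library per genotype there was no spread between replicates, so no difference between genotypes was tested, and all intervals below are 95% intervals for counting error only.

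Glycolysis turns glucose into pyruvate in the cytosol with a small net gain of ATP, and lactate dehydrogenase then converts pyruvate and lactate into each other. Several steps exist as isozymes with different roles: hexokinase 1 is the widespread form and hexokinase 2 the form typical of insulin-sensitive and rapidly growing cells, and lactate dehydrogenase is a tetramer in which A subunits favour the formation of lactate and B subunits its use. Endothelial cells are known for relying on glycolysis during vessel growth, and many glycolytic genes are targets of the hypoxia-inducible factors, which bind a core of ACGTG or GCGTG, and of Myc, which binds the E-box CACGTG.

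All 10 members had a promoter in the RefSeq-derived table (build GRCm38.p6), 17 promoters in all, each with 250 bases before and 50 bases after an annotated start. The letters ACGTG stood on either strand of 7 of the 17 promoters (41.2%) and of 19.6% of 32851 promoters in the table. GCGTG stood in 9 of the 17 and in 32.4% of all. The palindrome CACGTG, which contains ACGTG on both strands, stood in 1 of the 17 and in 7.15% of all. The 17 windows were not independent. Those of Aldoa starts 2 and 3 overlapped and shared the same ACGTG place, and those of Eno1 starts 2 and 3 overlapped in their GCGTG places. Counted by gene, 6 of the 10 members held ACGTG and 6 held GCGTG in at least 1 promoter. Whether these shares exceed those of all promoters was not tested. The 250 bases before the start are shown for the lactate dehydrogenase pair, whose balance differed between neuron-like and endothelial-like cells, and for Hk2 and Pgk1, of which the first was lowest in endothelial-like cells among the main classes and the second was the most abundant member there. They are written 5′ to 3′ in the direction of the gene, with ACGTG and its reverse complement CACGT in capitals. Ldha (first of 2 starts, chr7:46845554-46845803, plus strand) held 3 such places, of which 2 were CACGTG. Ldhb (chr6:142507958-142508207, minus strand) held none in its 300-base window, but 1 GCGTG. The second Ldha start, not shown, held no ACGTG, and each of the 2 Ldha starts held 2 GCGTG. The contrast between the pair thus depends on the motif and the start. Hk2 (chr6:82774455-82774704, minus strand) and Pgk1 (chrX:106186850-106187099, plus strand) held 2 places with ACGTG each.
Ldha: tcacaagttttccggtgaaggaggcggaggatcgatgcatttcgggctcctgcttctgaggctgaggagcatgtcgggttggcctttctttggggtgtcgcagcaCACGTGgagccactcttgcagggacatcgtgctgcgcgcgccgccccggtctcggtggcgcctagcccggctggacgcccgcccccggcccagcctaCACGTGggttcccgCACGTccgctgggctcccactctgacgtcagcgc
Ldhb: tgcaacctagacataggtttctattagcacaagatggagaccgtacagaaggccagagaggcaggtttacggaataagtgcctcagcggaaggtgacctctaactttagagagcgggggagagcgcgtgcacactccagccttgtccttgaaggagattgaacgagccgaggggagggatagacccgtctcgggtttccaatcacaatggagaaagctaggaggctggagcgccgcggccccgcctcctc
Hk2: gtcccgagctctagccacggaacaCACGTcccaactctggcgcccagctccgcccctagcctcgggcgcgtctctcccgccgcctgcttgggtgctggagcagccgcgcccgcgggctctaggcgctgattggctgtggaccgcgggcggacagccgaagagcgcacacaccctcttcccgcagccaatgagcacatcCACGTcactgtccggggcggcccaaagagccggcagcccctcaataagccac
Pgk1: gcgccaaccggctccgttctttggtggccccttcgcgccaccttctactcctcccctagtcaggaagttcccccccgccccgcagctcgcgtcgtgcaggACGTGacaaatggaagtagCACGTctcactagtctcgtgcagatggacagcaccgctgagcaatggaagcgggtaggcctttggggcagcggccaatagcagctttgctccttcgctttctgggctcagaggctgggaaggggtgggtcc
These matches describe the letters of the windows. No factor binding was measured in these libraries.

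The Foxq1flox/flox library held 76580165 UMIs in 15837 barcodes and the Foxq1iECKO library 72445925 UMIs in 15108 barcodes. After filtering and removal of called doublets, 13376 and 12557 cells were used, with medians of 4167 and 4061 UMIs and of 6.53% and 6.73% mitochondrial UMIs. The libraries shared 270 barcodes, 173 of them among the cells used. Despite the sort, cells of many classes were present, and 10 classes with at least 200 cells in each library were compared: endothelial-like (2422 and 1642 cells), lymphatic endothelial-like, pericyte-like, fibroblast-like, cartilage-like, macrophage-like, leukocyte-like, radial glia-like and neuron-like cells, and a cluster that mixed endothelial with pericyte markers (493 and 877 cells). Levels are CPM, the UMIs of a gene scaled to a common total within the summed cells of a class, which for 3′ tags need no correction for transcript length. Where a pair of values is given without further words, the Foxq1flox/flox value stands first. In the endothelial-like class Foxq1 stood at 431 CPM and 141 CPM, a log2 ratio, Foxq1iECKO over Foxq1flox/flox, of -1.61 [-1.69, -1.53]. Over all cells used Foxq1 stood at 193 and 108 CPM. It was among the leading genes of the mixed cluster, which the class ratio leaves out. The class ratio therefore does not measure the loss of Foxq1 transcripts over the whole library. All 12 endothelial markers were at or above 10 CPM in the endothelial-like cells of both libraries. The class was named from this same list, so these levels do not check the label of the sorted cells. Of the erythroid list, 6 of 11 markers reached 10 CPM there (summed levels of 884 and 677 CPM), and of the pericyte list 3 of 10 (222 and 244 CPM). Higd1b of the pericyte list was at 0 in the Foxq1flox/flox cells and Klf1 of the erythroid list in the Foxq1iECKO cells. The part of such RNA in the levels below was not tested.

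None of the 10 members was among the 2000 variable genes used for clustering, so the classes were built without them. Summed over all 10, the glycolytic transcripts were lowest in neuron-like cells, at 581 and 638 CPM, and highest in leukocyte-like cells, at 2405 and 2720 CPM. Endothelial-like cells, at 1146 and 1189 CPM, were seventh of the 10 classes in both libraries. The first and last places were thus taken by the same classes in both genotypes.

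**Figure D1:**
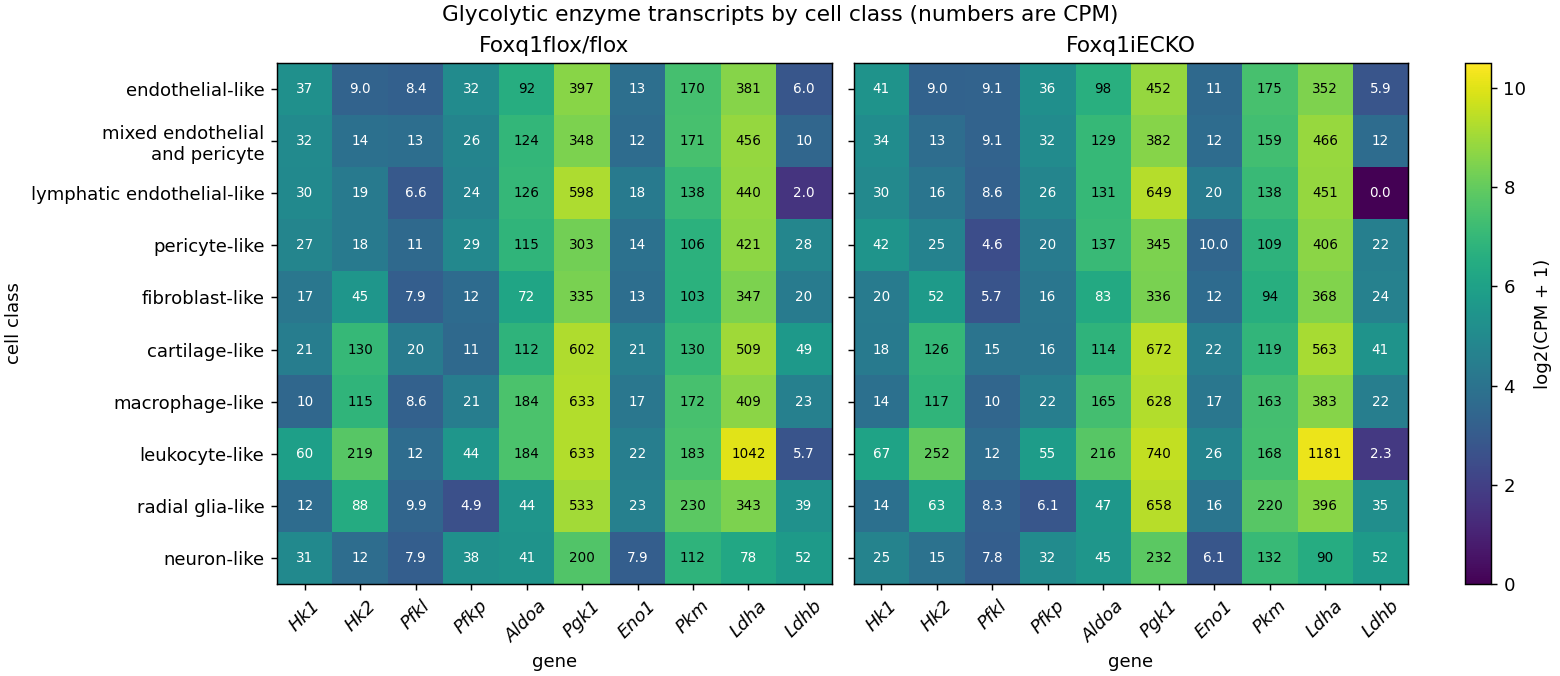
Levels of the 10 genes (columns) in the 10 cell classes (rows) of each library, as CPM of summed UMIs, coloured on a log2(CPM + 1) scale. Hk2 and Ldhb are low in the endothelial-like row, Ldha peaks in leukocyte-like cells at 1042 and 1181 CPM, and neuron-like cells have the lowest Ldha and the highest Ldhb.

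The hexokinases, which trap glucose in the cell by phosphorylating it, had unlike orders over the classes. Hk2 in the endothelial-like class stood at 9.04 CPM [7.66, 10.6] for Foxq1flox/flox and at 8.96 CPM for Foxq1iECKO. This was the lowest level of the 10 classes in both libraries, but its interval overlapped that of the next class in each: neuron-like cells for Foxq1flox/flox (12.3 CPM [9.80, 15.3]) and the mixed endothelial and pericyte cluster for Foxq1iECKO (12.7 CPM [10.3, 15.4]). Leukocyte-like cells had the highest Hk2, at 219 and 252 CPM, ahead of cartilage-like cells at 130 and 126 CPM, and the intervals of these neighbours in the order did not overlap in either library. Macrophage-like cells followed at 115 and 117 CPM, radial glia-like cells at 87.7 and 63.2 CPM and fibroblast-like cells at 45.2 and 52.3 CPM. The vascular classes other than endothelial-like cells were intermediate: lymphatic endothelial-like cells had 19.2 and 16.1 CPM of Hk2 and pericyte-like cells 18.4 and 24.5 CPM. Hk1 showed another order. It was highest in leukocyte-like cells (60.3 and 67.2 CPM), and endothelial-like cells, at 37.4 and 40.6 CPM, came next in the Foxq1flox/flox library. In the Foxq1iECKO library pericyte-like cells, at 42.1 CPM [31.7, 54.8], stood between these classes, with an interval that overlapped the endothelial-like one. Macrophage-like cells had 10.4 and 13.7 CPM of Hk1 and radial glia-like cells 12.2 and 13.7 CPM, the lowest levels.

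As a share of hexokinase UMIs, Hk2 made up 19.5% [16.8, 22.4] in Foxq1flox/flox endothelial-like cells and 18.1% [14.9, 21.7] in Foxq1iECKO ones. It made up 91.7% [89.9, 93.4] and 89.5% [87.7, 91.1] in macrophage-like cells. The share in radial glia-like cells was 87.8% and 82.2%, and in cartilage-like cells 86.3% and 87.4%. Endothelial-like and lymphatic endothelial-like cells therefore held mainly Hk1, with Hk2 shares of 38.7% and 34.9% in the lymphatic endothelial-like class. Pericyte-like cells had Hk2 shares of 40.7% [27.57, 54.97] and 36.8% [26.7, 47.8], on 54 and 87 hexokinase UMIs. The Foxq1flox/flox interval there did not exclude equal shares of Hk1 and Hk2, whereas the Foxq1iECKO interval did. Macrophage-like, cartilage-like and radial glia-like cells held mainly Hk2. Neuron-like cells also held mainly Hk1, with Hk2 shares of 28.4% [23.3, 34.0] and 36.6% [29.2, 44.5]. After each cell was thinned to 2000 UMIs, a Hk2 UMI was found in 1.16% and 2.16% of endothelial-like cells, compared with 5.45% and 4.81% before thinning. The thinned shares were 17.6% and 20.5% in macrophage-like and 29.3% and 30.0% in leukocyte-like cells. Thinning left out 360 and 299 of the endothelial-like cells.

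**Figure D2:**
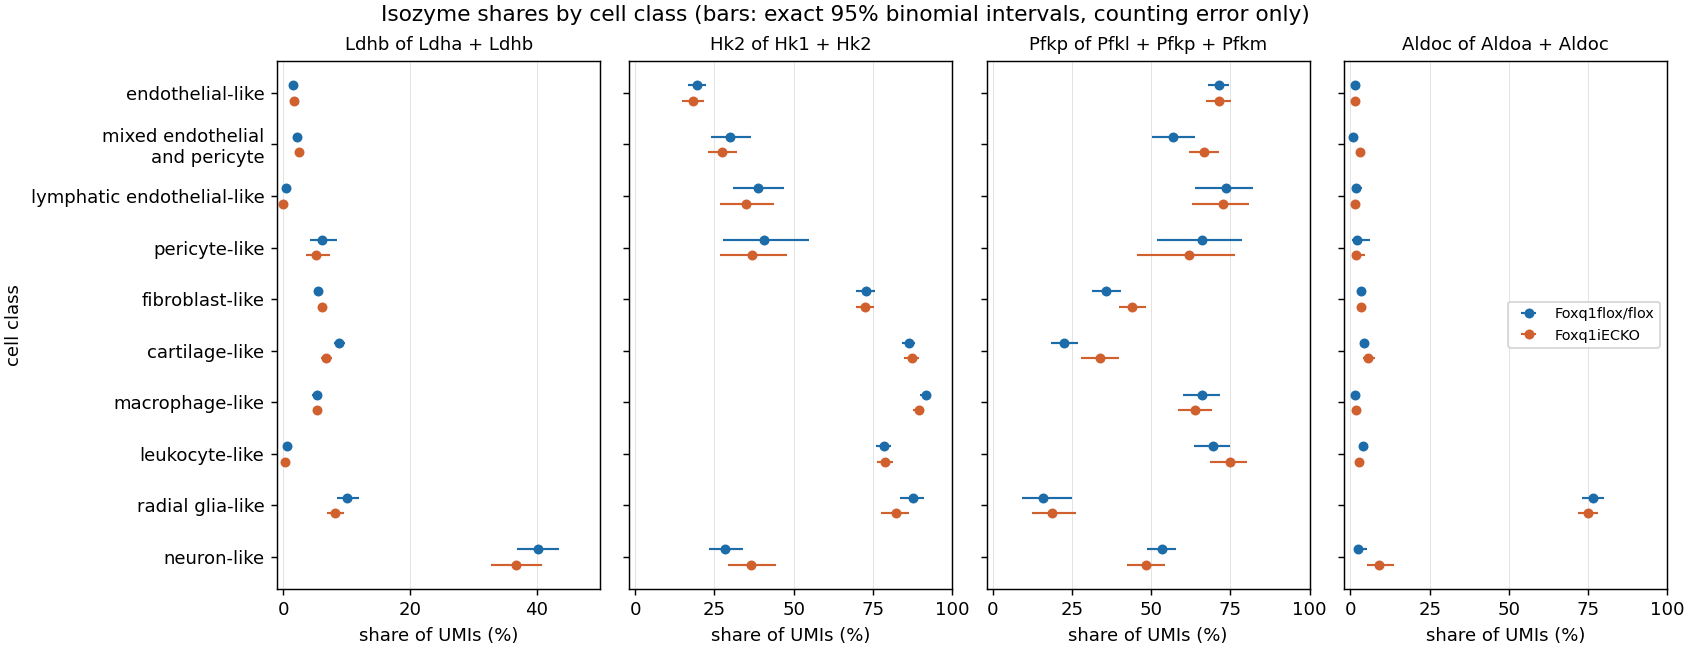
Share of each isozyme in the UMIs of its family (x axis, percent) for the 10 cell classes (y axis) in both libraries, with exact 95% binomial intervals. Hk2 is 18.1% to 19.5% in endothelial-like and 89.5% to 91.7% in macrophage-like cells, and Ldhb stands apart in neuron-like cells at 40.2% and 36.7%.

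Phosphofructokinase commits sugar to glycolysis, and its liver (Pfkl), platelet (Pfkp) and muscle (Pfkm, not one of the 10) subunits form tetramers. Pfkp was the main subunit in endothelial-like cells, at 32.0 and 36.2 CPM, with a share of 71.4% in both libraries. Pfkl was sparse there, at 8.45 and 9.05 CPM, and made up 18.8% and 17.9%. Pfkp was highest in leukocyte-like cells (44.5 and 55.2 CPM) and lowest in radial glia-like cells (4.95 and 6.10 CPM). In radial glia-like cells Pfkm took the largest share, 52.1% [41.6, 62.5] and 56.3% [47.5, 64.8]. Cartilage-like cells had 39.8% Pfkl, 37.7% Pfkm and 22.4% Pfkp for Foxq1flox/flox and 32.9%, 33.3% and 33.7% for Foxq1iECKO. The level of Pfkl ran from 6.60 to 19.6 CPM in the Foxq1flox/flox library and from 4.59 to 15.3 CPM in the Foxq1iECKO library. Its highest level was in cartilage-like cells in both.

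Aldolase A splits the phosphorylated sugar. Aldoa was highest in macrophage-like cells (184 and 165 CPM) and leukocyte-like cells (184 and 216 CPM). It was lowest in neuron-like cells, at 41.4 and 44.7 CPM, and radial glia-like cells, at 43.9 and 46.6 CPM, whose intervals overlapped. Endothelial-like cells, at 92.0 and 98.1 CPM, were seventh in both libraries. Radial glia-like cells differed in the isozyme: Aldoc, the brain form of aldolase, made up 76.6% of Aldoa and Aldoc UMIs there for Foxq1flox/flox, and 573 of 764 such UMIs for Foxq1iECKO. In endothelial-like cells Aldoc made up 1.33% [0.826, 2.03] and 1.34% [0.736, 2.24].

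Pgk1, which makes the first ATP of the pathway, was the most abundant member in endothelial-like cells, at 397 CPM [387, 406] and 452 CPM [439, 465]. For Foxq1flox/flox this interval overlapped that of Ldha (381 CPM). In the barrier subclusters described below Ldha exceeded Pgk1, at 401 and 390 CPM against 316 and 315 CPM. Among the classes, Pgk1 was highest in leukocyte-like cells (633 and 740 CPM), level with macrophage-like cells (633 CPM) for Foxq1flox/flox, and lowest in neuron-like cells (200 and 232 CPM). Lymphatic endothelial-like cells held more of it than endothelial-like cells, at 598 and 649 CPM, in intervals that did not overlap.

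Eno1, the enolase of most tissues, was counted at low levels throughout, at 13.3 and 11.1 CPM in endothelial-like cells. Its near-identical copy Eno1b was counted at 29.8 and 26.9 CPM in the same cells. Of the 441 60-base words in the last 500 bases of the longest Eno1 coding transcript (ENSMUSG00000063524), 309 (70.1%) also occurred in other genes of the GENCODE vM21 annotation, and the sources do not say how the authors counted reads that match several genes. The Eno1 values are therefore uncertain in level, and reads of Eno1 and Eno1b could not be told apart. The same count was 89 words (20.2%) for Ldhb, 23 (5.22%) for Pgk1 and 0 for each of the other 7 members. Within these limits Eno1 was lowest in neuron-like cells in both libraries (7.92 and 6.07 CPM), and the intervals of all neighbouring classes in its order overlapped.

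Pkm encodes both splice forms of muscle-type pyruvate kinase, which 3′ tags do not separate. It varied little: from 103 CPM in fibroblast-like to 230 CPM in radial glia-like cells for Foxq1flox/flox, and from 94.4 to 220 CPM in the same classes for Foxq1iECKO. Endothelial-like cells held 170 and 175 CPM.

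The lactate dehydrogenase subunits had different orders. Ldha in the endothelial-like class stood at 381 CPM [372, 391] and 352 CPM [341, 364]. Leukocyte-like cells had 1042 and 1181 CPM and neuron-like cells 78.0 and 90.3 CPM, a 13.4-fold and 13.1-fold range. Both extremes lay outside the intervals of the neighbouring classes. Ldhb was highest where Ldha was lowest. Its level was highest in neuron-like cells, at 52.4 CPM in each library, followed by cartilage-like cells at 49.0 and 40.9 CPM, whose intervals overlapped the neuron-like ones, and radial glia-like cells at 38.6 and 35.1 CPM. Endothelial-like cells had 6.02 CPM [4.91, 7.31] and 5.91 CPM [4.53, 7.57]. Lymphatic endothelial-like cells had the lowest Ldhb, with 6 UMIs (1.98 CPM [0.727, 4.31]) for Foxq1flox/flox and 0 for Foxq1iECKO.

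Ldhb thus made up 1.56% [1.27, 1.88] of lactate dehydrogenase UMIs in Foxq1flox/flox endothelial-like cells and 1.65% [1.27, 2.11] in Foxq1iECKO ones. In neuron-like cells it made up 40.2% [36.9, 43.6] and 36.7% [32.8, 40.8]. The shares in radial glia-like cells were 10.1% and 8.14%, in macrophage-like cells 5.25% and 5.37%, and in leukocyte-like cells 0.545% and 0.197%. The lymphatic endothelial-like share was 0.448%, then 0 of 1261 UMIs, which allows a share of up to 0.238%. With each cell thinned to 2000 UMIs, a Ldhb UMI was found in 1.21% [0.786, 1.78] and 1.04% [0.571, 1.74] of endothelial-like cells, against 0.389% [0.00985, 2.15] and 0% of lymphatic endothelial-like cells, where the gene was lowest. These shares overlapped within their intervals, whereas the CPM intervals of these classes did not. No class was known to lack Ldhb, and the part of free RNA in these shares was not tested. In neuron-like cells 10.1% [8.72, 11.7] and 9.30% [7.54, 11.3] of the thinned cells held a Ldhb UMI and 11.3% and 13.7% an Ldha UMI. Median depths before thinning were 9493 and 9688 UMIs in lymphatic endothelial-like cells and 4467.5 and 4145 in endothelial-like cells.

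Clusters within a class also differed. Among leukocyte-like cells, the cluster led by the mast cell genes Cpa3 and Cma1 held 1644 and 1682 CPM of Ldha and 0.0591% and 0% Ldhb, and the other cluster, led by H2-Aa and Trbc2, 413 and 466 CPM of Ldha. The leukocyte-like Ldha level was thus a mean of unlike clusters. Among macrophage-like cells, the cluster led by P2ry12, a gene known from microglia, had 41.7 and 49.2 CPM of Ldhb, against 6.09 and 7.35 CPM in the cluster led by F13a1 and Mrc1. Its Hk2 was also higher, at 152 and 156 CPM against 83.4 and 96.4 CPM, and its Pfkp lower, at 9.96 and 8.79 CPM against 30.9 and 28.5 CPM. Among neuron-like cells, the cluster led by Ina and Pou4f1 held 50.4 and 45.1 CPM of Pfkp and Ldhb shares of 50.5% and 41.7%. The cluster led by Neurod6 had Ldhb shares of 24.1% and 31.7%, and the cluster led by Dlx6os1 and Dlx1 34.6% and 40.5%. In classes too small for the comparison, megakaryocyte-like cells (68 and 47) had 151 [111, 201] and 241 [182, 312] CPM of Hk1 and 187 and 372 CPM of Aldoa. Neural crest-like cells (30 and 73) had 78.1 [39.0, 140] and 64.5 [40.9, 96.8] CPM of Ldhb.

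**Figure D3:**
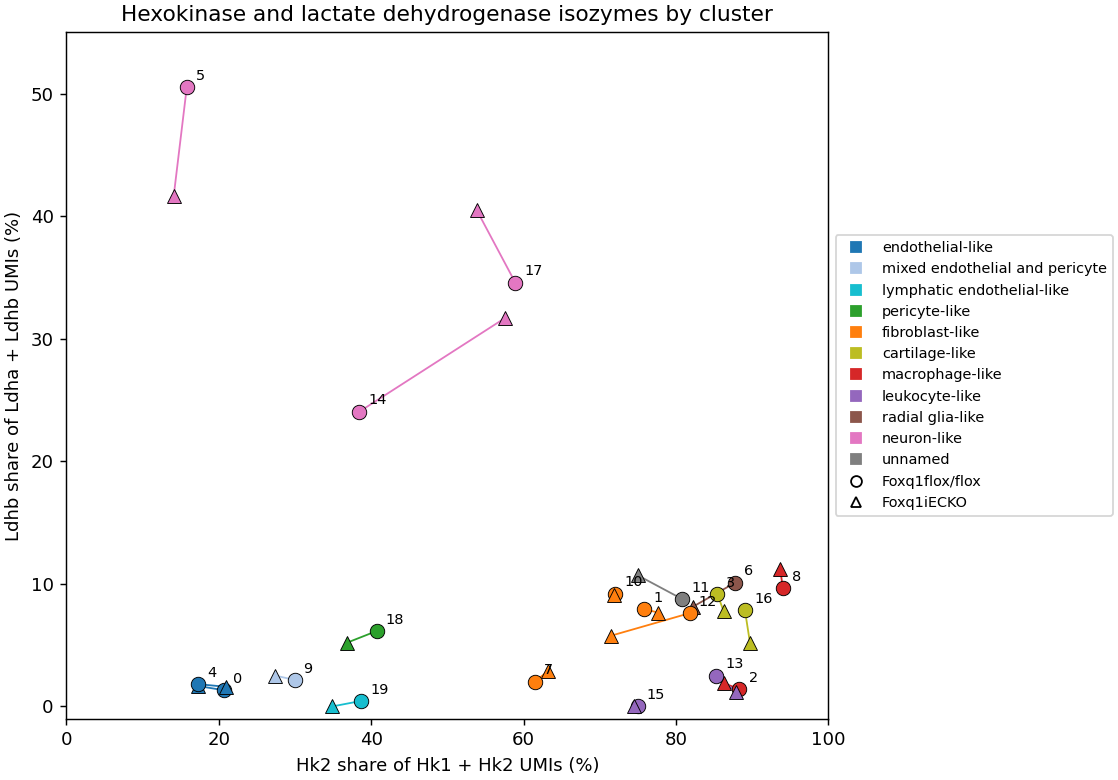
Hk2 share of hexokinase UMIs (x axis, percent) against Ldhb share of lactate dehydrogenase UMIs (y axis, percent) for each cluster with at least 200 cells in both libraries, with a line joining the libraries. The endothelial-like clusters 0 and 4 lie at low values of both shares, the neuron-like clusters 5, 14 and 17 at Ldhb shares of 24.1% to 50.5%, and cluster 8, led by P2ry12, above cluster 2 on both axes.

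Endothelial-like cells were next set against each of the other 9 classes within each library. A member counted as apart by size where its CPM ratio was at least 1.5 and its interval excluded equality, in the same direction in both libraries, among genes at 10 CPM or more in at least 1 of the cell groups compared. This held for 37 of 84 measured pairs of member and class, 15 higher and 22 lower in endothelial-like cells. Of the 22, 15 were pairs of Hk2, Ldhb or Pfkl, which were under 10 CPM in endothelial-like cells and so were measured only through the class where they were high, which left little but a lower call. Since the classes were built from expression, these counts are read only beside the same count over all genes. Against neuron-like cells, 5 of 9 measured members were apart, with Aldoa, Pgk1, Eno1 and Ldha higher and Ldhb lower, while 62.2% of all genes were. Against radial glia-like cells, 5 of 9 were apart (Hk1, Pfkp and Aldoa higher, Hk2 and Ldhb lower) and 57.6% of all genes. Leukocyte-like cells differed by 6 of 9 (Hk1, Hk2, Aldoa, Pgk1, Eno1 and Ldha, all lower in endothelial-like cells) and by 49% of all genes. Macrophage-like cells differed by 5 of 10 (Hk1 and Pfkp higher, Hk2, Aldoa and Ldhb lower), beside 46.6%. Cartilage-like cells differed by 6 of 10 (Hk1 and Pfkp higher, Hk2, Pfkl, Eno1 and Ldhb lower), beside 44.5%. Fibroblast-like cells differed by 5 of 9 (Hk1, Pfkp and Pkm higher, Hk2 and Ldhb lower), beside 43.9%. Closer to the vessel wall the counts were smaller: 3 of 10 for pericyte-like cells (Pkm higher, Hk2 and Ldhb lower), beside 30.3% of all genes, 1 of 8 for lymphatic endothelial-like cells (Hk2 lower), beside 23.5%, and 1 of 10 for the mixed endothelial and pericyte cluster (Ldhb lower), beside 14.7%. Most of these member counts lay near the background of their comparison.

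Across the 10 classes and both libraries (20 points, which share libraries and depth), members paired unevenly. On the log2(CPM + 5) scale Pearson's r was 0.89 for Pgk1 and Eno1, 0.78 for Hk1 and Pfkp and 0.78 for Eno1 and Ldha. Ldhb was negatively related to Hk1 (r = -0.59), Aldoa (-0.58) and Ldha (-0.54). Of 7126 other genes at 50 CPM or more in a class, those closest to the mean of the 10 members were Impa2 (r = 0.93), an inositol monophosphatase, Nrm (0.93), a nuclear envelope protein, Spcs3 (0.92), a signal peptidase subunit, Tnfaip8 (0.90), Tpi1 (0.89), the triosephosphate isomerase of the same pathway, and Cpox (0.89), a haem synthesis enzyme. Tpi1 stood at 18.7 and 22.7 CPM in endothelial-like cells, 55.6 and 72.5 CPM in leukocyte-like cells and 15.1 and 13.8 CPM in neuron-like cells.

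The comparison of genotypes asked whether glycolytic transcripts in endothelial-like cells differ between the library labelled Foxq1iECKO, in which Foxq1 transcripts were lower but still counted, and the Foxq1flox/flox library. At 10 CPM or more, 7 of the 10 members were measured, and Hk2, Pfkl and Ldhb fell below this level in both libraries. None of the 7 was 1.5-fold apart in either direction, where 1.86% of 8000 genes were. Their median log2 ratio, Foxq1iECKO over Foxq1flox/flox, was 0.093, beside -0.013 over all 8000 genes. Pgk1 had the highest ratio, 0.19 [0.13, 0.24], and its interval excluded equality. A higher Pgk1 level in the Foxq1iECKO library was not particular to this class: over all cells used it was 444 and 491 CPM. In leukocyte-like cells it was 633 and 740 CPM, and in the barrier subclusters described below 316 and 315 CPM. Pfkp followed at 0.18 [-0.015, 0.37], Hk1 at 0.12 [-0.062, 0.30], Aldoa at 0.093 [-0.022, 0.21] and Pkm at 0.041 [-0.044, 0.13]. Ldha stood at -0.12 [-0.17, -0.057] and Eno1 at -0.27 [-0.60, 0.064]. The Ldha value became 0.015 when the mixed endothelial and pericyte cluster was added and likewise at a coarser clustering, so its direction was not stable. Pkm became -0.020 with the mixed cluster added. For all 7, each interval lay within a 1.5-fold change except that of Eno1.

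**Figure D4:**
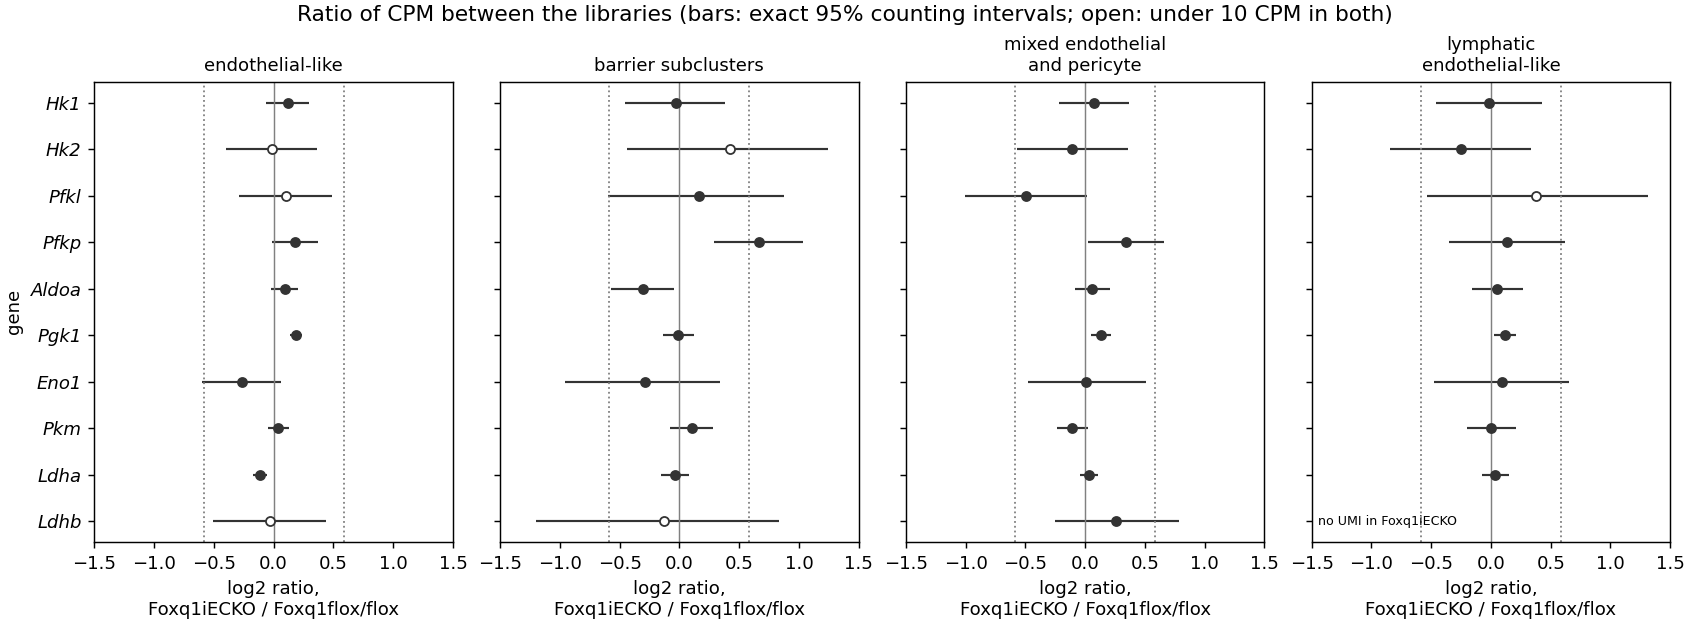
Log2 ratio of CPM, Foxq1iECKO over Foxq1flox/flox (x axis), for each of the 10 genes (y axis) in 4 groups of vascular cells, with exact 95% counting intervals; dotted lines mark a 1.5-fold change and open points are under 10 CPM in both libraries. Of the plotted points, Pfkp in the barrier subclusters, at 0.67, lies beyond a dotted line with an interval that excludes 0; Ldhb had no UMI in Foxq1iECKO lymphatic endothelial-like cells and has no point.

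The endothelial-like class consisted of 2 clusters whose proportions differed between libraries. Cluster 4, led by the barrier genes Slco1c1 and Slc2a1, held 1138 of 2422 cells in the Foxq1flox/flox library and 623 of 1642 in the Foxq1iECKO library. In Pgk1 they had 326 and 329 CPM in cluster 4 and 450 and 497 CPM in cluster 0. For Ldha the values were 404 and 369 CPM against 364 and 346 CPM. Cluster 4 was thus lower in Pgk1 and higher in Ldha than cluster 0 in both libraries. Whether Foxq1 bears on these proportions was not tested.

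Subclustering gave 2 subclusters with the marker profile of the blood-brain barrier, together 843 and 398 cells, in which Foxq1 was at 970 and 451 CPM. The 10 members summed to 1079 and 1078 CPM there and to 1183 and 1215 CPM in the other endothelial-like cells. Of 8 members measured in the barrier subclusters, 1 was apart by size: Pfkp, with 180 UMIs (30.4 CPM) and 96 UMIs (48.2 CPM), a log2 ratio of 0.67 [0.29, 1.03]. Over all genes 5.71% were apart there, 354 higher and 113 lower of 8175. In the deeper of these subclusters alone, Pfkp was at 27.6 and 46.3 CPM, and in the shallower one at 49.2 and 53.1 CPM. The shallower one held 274 of the 843 and 195 of the 398 cells. Median depths were 4780 and 3147.5 UMIs in the joined subclusters and 7907 and 5895 UMIs in the deeper one. The part of depth and of these proportions in the Pfkp ratio was not tested. In the mixed endothelial and pericyte cluster the Pfkp ratio was 0.34 [0.025, 0.66]. In other subclusters Pfkp was at 32.9 and 34.8 CPM in the largest one, led by Iigp1 and Ccl2, and at 42.4 and 30.8 CPM in the one led by Thbs1 and Tnc. In the remaining members of the barrier subclusters, Aldoa had a ratio of -0.30 [-0.57, -0.044], and Pgk1, at -0.0074, and Ldha, at -0.038, were close to equality.

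**Figure D5:**
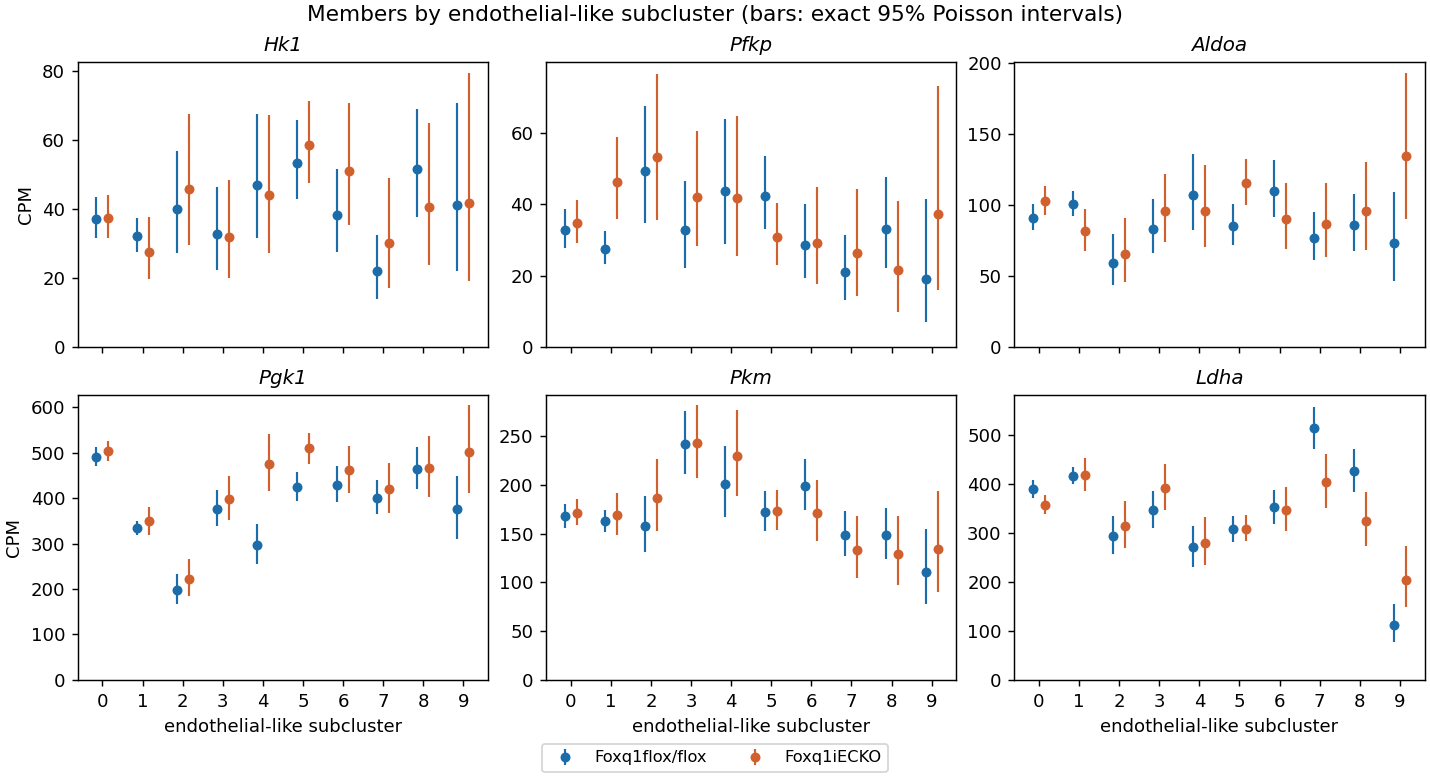
CPM (y axis) of 6 members in the 10 endothelial-like subclusters (x axis) of both libraries, with exact 95% Poisson intervals. Subclusters 1 and 2 carry barrier markers, subcluster 3 cycling and subcluster 9 arterial markers; Pfkp is at 27.6 and 46.3 CPM in subcluster 1, and Ldha is lowest in subcluster 9, at 111 and 204 CPM.

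Members also varied among subclusters within a library. Pgk1 was lowest in the shallower barrier subcluster, at 198 and 222 CPM, and stood at 491 and 503 CPM in the Iigp1 subcluster. Ldha was lowest in the arterial subcluster (68 and 51 cells), at 111 and 204 CPM, and stood at 514 and 404 CPM in the one led by Car2 and Itm2a. Pkm was highest in the cycling subcluster, at 242 and 243 CPM. Depth moved with these levels: the 4 subclusters with a median under 3500 UMIs (864 and 640 cells) summed to 986 and 1131 CPM over the 10 members, against 1176 and 1202 CPM in the deeper ones. The nuclear RNA Malat1 stood at 6191 and 4496 CPM in the shallow and 2070 and 1751 CPM in the deep subclusters. Its part in the differences was not tested. Of the 10 subclusters, 3 held a member apart by size between libraries, 4 calls among 76 measured members, all higher in Foxq1iECKO. These were Pfkp in the deeper barrier subcluster, beside 5.02% of all genes there, and Pgk1 in the one led by Zfp791 and Airn (253 and 196 cells), at 297 and 475 CPM, beside 6.44%. The others were Ldha and Aldoa (73.1 and 135 CPM) in the arterial one, beside 6.46%, on 35 and 44 UMIs of Ldha and 23 and 29 UMIs of Aldoa.

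Cycling endothelial-like cells, the upper 25% by summed S phase and mitosis genes (599 and 417 cells), were compared with the rest within each library. Pgk1 was at 480 against 369 CPM for Foxq1flox/flox, a log2 ratio of 0.38 [0.30, 0.46], and at 492 against 437 CPM for Foxq1iECKO, 0.17 [0.078, 0.26]. Ldha had ratios of 0.19 [0.11, 0.27] and 0.16 [0.055, 0.26]. Pkm had 0.35 [0.23, 0.47] and 0.12 [-0.026, 0.27]. Pgk1 and Ldha were thus higher in cycling cells of both libraries beyond counting error, by less than 1.5-fold, and Pkm in those of Foxq1flox/flox. Malat1 was lower in the cycling cells, at 2414 against 2813 CPM and at 2057 against 2325 CPM, and 295 cells lay near the boundary of the score. Their part in these ratios was not tested.

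In each of the other 9 classes, taken whole, no measured member was apart by size between genotypes. The background, the percentage of all genes apart by size, was 3.45% in cartilage-like, 2.21% in fibroblast-like, 4.77% in leukocyte-like and 3.83% in lymphatic endothelial-like cells. It was 3.29% in macrophage-like, 5.56% in neuron-like, 6.06% in pericyte-like and 4.49% in radial glia-like cells, and 2.82% in the mixed cluster. With backgrounds this low, a count of 0 among 8 to 10 members is near what all genes showed. Hk1 in pericyte-like cells came closest, at 32 and 55 UMIs (26.8 and 42.1 CPM), with a log2 ratio of 0.65 [-0.0015, 1.33]. The median ratio of the members was highest in fibroblast-like and leukocyte-like cells, 0.20 in each, beside -0.035 and -0.028 over all genes there. In the same leukocyte-like cells 8 of 14 dissociation response genes were higher by size in the Foxq1iECKO library, with a median log2 ratio over the list of 0.67, and their part in the members' ratios was not tested. Over the 22 single clusters, 3 held a member apart by size, 4 calls among 193 measured members and all higher in Foxq1iECKO. Pfkp in the leukocyte-like cluster led by H2-Aa had 34.5 and 52.5 CPM, a log2 ratio of 0.60 [0.090, 1.12], beside 7.02% of all genes. Hk2 in the neuron-like cluster led by Neurod6 had 20 and 42 UMIs (14.4 and 26.8 CPM), 0.89 [0.090, 1.74], beside 6.78%. The megakaryocyte-like cells gave Hk1, at 0.67 [0.086, 1.27], and Aldoa, at 0.99 with a lower limit of 0.49, beside 6.87%.

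Other genes of glucose metabolism were counted in the same way in endothelial-like cells. Of 22 further glycolytic genes 6 were measured and none was apart by size (median log2 ratio -0.069). Pgam1, the phosphoglycerate mutase, was at 316 and 337 CPM, Pfkfb3, which makes the activator of phosphofructokinase, at 115 and 109 CPM, Gapdh at 54.3 and 52.0 CPM and Gpi1 at 32.1 and 29.7 CPM. Of 9 glucose and lactate transport genes 3 were measured and none was apart by size. Slc2a1, the glucose transporter of the barrier, was at 510 and 367 CPM, a log2 ratio of -0.48 [-0.53, -0.42]. Its level in the barrier subclusters was 962 and 900 CPM, and these subclusters were a smaller part of the class in the Foxq1iECKO library. Slc2a1 was itself among the markers that named these subclusters, so its level there was partly set by the naming. The part of their proportions in the Slc2a1 ratio was not tested. None was apart by size among 12 measured of 13 genes of pyruvate entry into mitochondria, among 3 of 7 of the pentose phosphate pathway, among 5 of 13 of gluconeogenesis and glycogen, and among 15 of 17 hypoxia targets outside glycolysis, such as Bnip3l at 316 and 297 CPM. Of 8 regulators, all measured, Myc was higher by size, at 44.9 and 68.4 CPM, a log2 ratio of 0.61 [0.46, 0.76]. No regulator was apart by size in the barrier subclusters, the mixed endothelial and pericyte cluster or lymphatic endothelial-like cells. Epas1, the hypoxia-inducible factor of endothelium, was at 935 and 789 CPM. Of 18 cell cycle genes 17 were measured and none was apart. Of 14 genes known to respond to tissue dissociation, 3 were lower by size in the Foxq1iECKO library: Hspa1a (63.8 and 28.9 CPM), Hspa1b (51.8 and 29.3 CPM) and Nr4a1 (147 and 88.8 CPM). Beside these counts, 1.86% of all genes measured in endothelial-like cells were apart by size.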

How the data were processed

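Cells of E12.5 mouse brain sorted with CD31 microbeads were profiled in 1 Foxq1flox/flox and 1 Foxq1iECKO library. The deposited values are raw UMI counts per gene and cell barcode, made by the authors with fastp 0.24.0 and STARsolo 2.7.11b on mm10, per the submitters' processing notes; how these were set, which annotation was used, how barcodes were filtered and what was done with reads matching several genes was not stated. The members and all gene lists were chosen with earlier results of these data known. A barcode was kept as a cell from 500 genes and 1000 UMIs upwards, if mitochondrial UMIs did not exceed 20%. Scrublet, as run in scanpy 1.11.5, removed 557 and 551 cells (4.00% and 4.20%) as doublets. Cells of both libraries were clustered together on 2000 variable genes, 30 components and 20 neighbours (Leiden resolution 1). Clusters were named from marker lists, needing at least 3 markers, and haemoglobin genes were not counted when a cluster was judged mixed.

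Counts were summed per class and library and scaled to CPM. Levels have exact Poisson intervals, shares exact Clopper-Pearson intervals and ratios exact conditional binomial intervals, all at 95% and for counting error only. A gene was measured at 10 CPM in at least 1 group, and apart by size at 1.5-fold with an interval excluding equality. With 1 library per genotype no test was made. A share of 0 is given with the limit that 3 counts would set. This rule for size was also run on Poisson counts simulated from the pooled endothelial-like profile. These had no spread between cells, embryos or libraries, so they do not check the rule against such spread. All members are named; from each other list up to 4 measured genes could be named, with preference for those apart by size and, after them, for high levels, and the 6 genes with the most similar pattern. Scaling by edgeR 4.0.16 and by DESeq2 1.42.0 factors served as alternatives.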

Additional observations from a re-analysis of the deposited data

How the results depend on the processing

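No paired analysis was possible because each genotype has 1 library. The count of members apart by size between genotypes in endothelial-like cells was 0 under all 15 alternatives run, and their median log2 ratio lay between 0.063 and 0.10 under the 14 that give one. A stricter size limit was among the 15 and could give no call where the main limit gave none. The count at a looser size limit was likewise settled by the main ratios. These limits therefore add nothing on how stable the count was. The pairs of member and class apart by size numbered 34 to 38, against 37. Over the other 9 whole classes and the joined barrier subclusters, 1 member was apart by size between genotypes (Pfkp in the barrier subclusters), single clusters and subclusters not being counted here. This count became 2 when clustering left out the listed metabolic and hypoxia genes (Hk1 in pericyte-like cells added), 2 with doublets kept (Pfkp in cartilage-like cells added) and 2 with totals without mitochondrial, ribosomal protein and haemoglobin genes (Hk1 in pericyte-like cells added). In all 3 settings the barrier call was carried over from the main setting and not computed again. These counts therefore do not show whether Pfkp in the barrier subclusters depends on the setting. With doublets kept, the Ldhb share in neuron-like cells was 33.0% and 28.0%. The cause was not tested. Depth limits Hk2, Pfkl and Ldhb in endothelial-like cells, each with at most 153 UMIs in a library. The 3 settings that gave 2 were chosen for this count after seeing the data, as was leaving out the subclusters with a median under 3500 UMIs.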
